A study of Rattus norvegicus with 6 samples.

Results

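Metalloproteinases of the matrix and cell surface, together with their tissue inhibitors, were followed in regenerated sciatic nerve of male, wild-type Sprague-Dawley (SD) rats. They were taken by name, as every row of the count table whose symbol begins with Mmp, Adam, Adamts, Adamtsl or Timp and a number, which gave 78 of 23091 rows and 77 symbols. All rats had a sciatic nerve defect. In the implant group (3 libraries, implant 1 to 3) the gap was bridged with GDNF-Gel/HA-Mg, a nerve conduit named for the neurotrophic factor GDNF. In the NC group (3 libraries, NC 1 to 3) nothing was placed and the wound was closed. The series asked how the material acts on nerve regeneration. The labels give neither the age of the rats nor the time after surgery, and do not say whether each library came from a separate animal, so each p-value rests on the differences among these 6 samples, part of which may be technical.

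Matrix metalloproteinases (MMPs) are zinc enzymes that are made as inactive precursors and cut collagens, laminins, proteoglycans and other secreted proteins. ADAM proteins sit in the cell membrane, where the active ones release the outer parts of receptors, ligands and adhesion molecules, while ADAMTS proteins are secreted and cut proteoglycans, procollagens and blood proteins. TIMPs bind the active site of these enzymes and block it. In injured nerve, Schwann cells, fibroblasts and invading macrophages make MMPs, which open the blood-nerve barrier, help to clear myelin and remodel the matrix through which axons regrow.

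Total counts per library were 16120518 to 18491379 with the implant and 15897850 to 17990057 in NC. Schwann cell transcripts were present in all 6 libraries, with Sox10, the transcription factor of that lineage, at 179, 122 and 161 CPM with the implant, against 154, 243 and 21.8 CPM in NC. Myelin, red cell, muscle and fat transcripts differed widely between libraries of the same group. The summed level of 7 myelin markers spanned 1006 to 18974 CPM with the implant and 1072 to 37801 CPM in NC. Haemoglobin took 8.08% to 14.8% of counts with the implant and 1.02% to 25.2% in NC. Levels are given as CPM, counts scaled to a common library size, and are not divided by transcript length, so they compare libraries for 1 gene and not 1 gene with another. In whole tissue, fewer cells of a type and less RNA per cell cannot be told apart.

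Of the 78 rows, 12 had no count in any library, 9 had counts below the filter for testing and 57 were tested. No member passed the edgeR quasi-likelihood test over all genes, where 0 of 13999 genes (0%) fell under an adjusted p of 0.05 (Benjamini-Hochberg). At an unadjusted p under 0.05 there were 3 members, Mmp7, Adamts5 and Mmp28, or 5.26% of the 57, beside 1.72% of all genes tested. All 3 were lower with the implant, where 0.693% of all genes fell below that p on the lower side; on the higher side there were 0 members and 1.03% of all genes. Mmp7 passed the filter only through NC, where it was high, so its direction was set by the filter. Under a filter of 1 CPM in at least 3 libraries, which leaves Mmp7 out, 2 of 52 members (3.85%) and 1.66% of all genes were under that p. Without NC 3, the library richest in haemoglobin, 6 of 58 tested members (10.3%) and 3.92% of all genes were under it. The 6 were Adam7, Adamts1, Adamts5, Mmp28, Mmp7 and Mmp8. Of these, Adam7 and Mmp7 passed the filter only through NC, so their direction was set by the filter. The 3 libraries of one group lay entirely above those of the other for 4 members (7.02%), close to the 5.69% found over all genes. Those on the lower side were Mmp7, Adamts5 and Mmp28, where all genes had 2.88%, and the one on the higher side was Adam8, where all genes had 2.81%. DESeq2 called 1 member, Mmp7, among 11 calls (0.0788% of all genes with an adjusted p).

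The median log2 fold change of the 57 members, implant over NC, was -0.05, beside -0.01 over all genes, and 24 of the 57 were above 0 (47% of all genes were). By family the median was 0.02 for 18 MMPs, -0.02 for 12 ADAMs, -0.14 for 19 ADAMTS genes, -0.12 for 5 ADAMTS-like genes and 0.20 for 3 TIMPs. The median member varied more between libraries than the median gene did. The ratio of the highest to the lowest library, with 0.1 CPM added to each, had a median of 2.51 over members and 1.67 over all genes. The 95% interval of the fold change lay within 2-fold in either direction for 17 members (29.8%), beside 65.8% of all genes. For the other 40 members a 2-fold difference in at least one direction was not excluded at this spread. The interval reached past 4-fold for 11 of the 57.

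**Figure D1:**
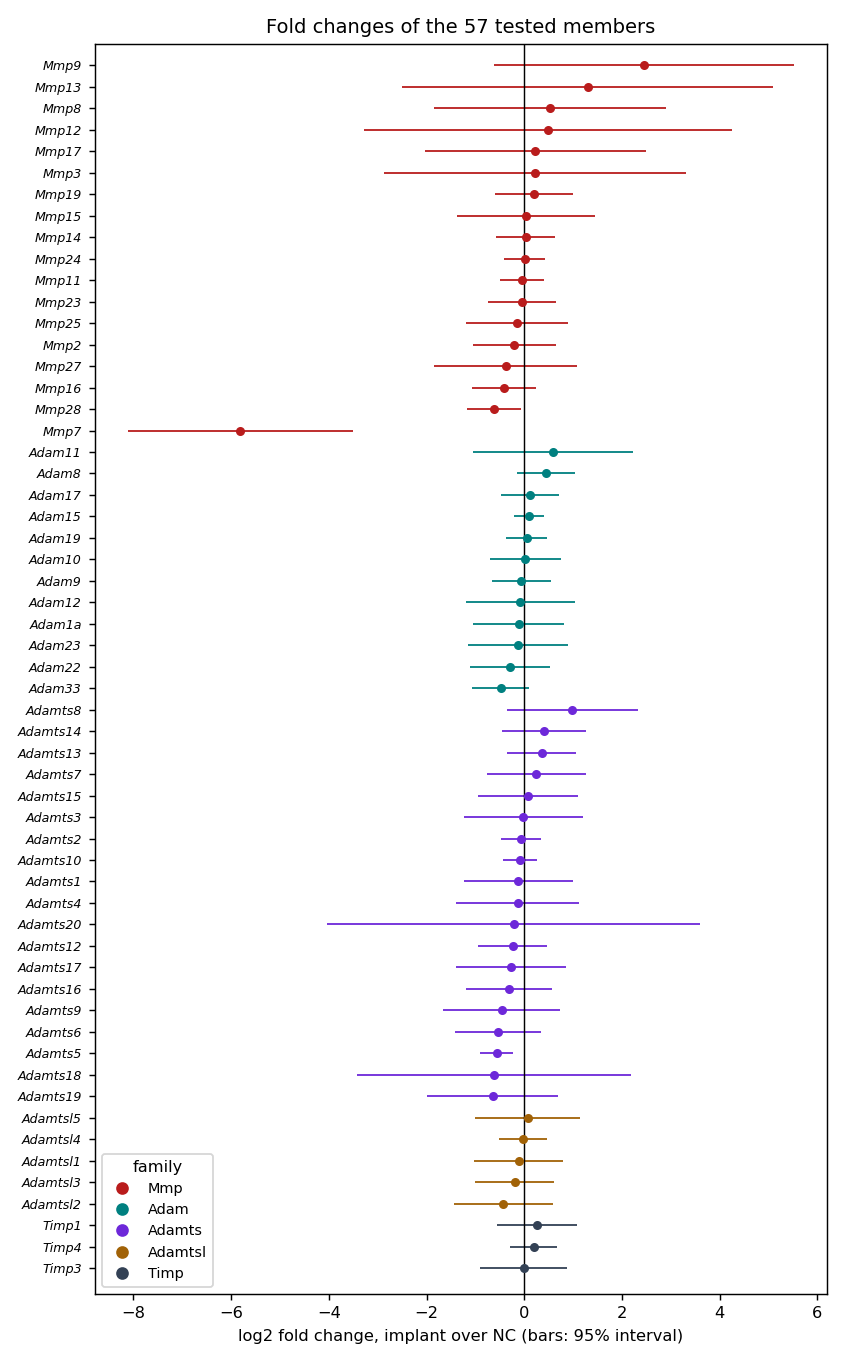
Log2 fold change of each tested member, implant over NC, on the horizontal axis, with 95% intervals from the edgeR fit and colours for the 5 families. Most points lie near 0, the intervals of Mmp3, Mmp9, Mmp12, Mmp13 and Adamts20 are wide, and Mmp7 stands alone at the left, where its fitted value rests on 1 implant count and depends on the prior count of the fit.

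Of the 5 members with the widest range between libraries, 3 (Mmp12, Mmp13 and Mmp7) belong to 1 block of neighbouring genes. RefSeq places 10 Mmp genes side by side on rat chromosome 8, in the order Mmp13, Mmp12, Mmp1b, Mmp3, Mmp1, Mmp10, Mmp8, Mmp27, Mmp20 and Mmp7. In these nerves 6 of the 10 were tested. Mmp1, Mmp1b and Mmp20, which encode interstitial collagenases and the enamel protease enamelysin, had no count, which allows up to 3 counts in each library, and Mmp10 (stromelysin 2) had a total of 3.01 counts.

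The promoters of this block are shown because 5 of the genes printed share a short arrangement of motifs while their transcripts behaved differently. Sequences are from RefSeq (GRCr8, plus strand, 5′ to 3′) and run from 100 to 21 bases before the annotated start of the gene. Capitals mark TGAGTCA or its reverse complement TGACTCA, the letters bound by AP-1 (the Fos and Jun factors), and TATAAA, a form of the TATA box.
Mmp3 (chr8:12925181-12925260): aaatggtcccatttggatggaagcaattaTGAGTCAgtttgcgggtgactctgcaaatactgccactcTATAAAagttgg
Mmp12 (chr8:12866552-12866631): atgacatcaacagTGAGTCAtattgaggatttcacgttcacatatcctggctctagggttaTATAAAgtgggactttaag
Mmp13 (chr8:12782729-12782808): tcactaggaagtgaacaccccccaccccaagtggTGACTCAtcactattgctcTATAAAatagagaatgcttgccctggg
Mmp7 (chr8:13132943-13133022): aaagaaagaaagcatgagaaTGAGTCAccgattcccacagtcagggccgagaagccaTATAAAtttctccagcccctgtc
Mmp10 (chr8:12974607-12974686): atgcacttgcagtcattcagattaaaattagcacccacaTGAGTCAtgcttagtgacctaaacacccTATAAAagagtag
Mmp8 (chr8:13008790-13008869): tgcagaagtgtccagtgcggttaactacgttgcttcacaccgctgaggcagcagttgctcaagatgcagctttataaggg
The AP-1 letters began 71 bases before the start in Mmp3, 87 in Mmp12, 66 in Mmp13, 80 in Mmp7 and 61 in Mmp10, each followed by TATAAA. Mmp1 had the same pair, with AP-1 letters 84 bases before the start. Mmp8 had neither set of letters in this stretch, though TATAAG, which differs from TATAAA in its last letter, stood near the end. A RefSeq promoter of 300 bases, from 250 before to 50 after the start, was matched for 52 of the 77 member symbols. AP-1 letters, searched on both strands, were in 8 of these 52 (15.4%) and in 5.04% of the 27457 genes of the RefSeq promoter table, measured here or not. AP-1 letters with TATAAA after them and before the start were in 6 members (11.5%), all of this block, and in 0.288% of the same RefSeq genes. The 6 promoters with the pair belong to Mmp3, Mmp12 and Mmp13, which were high in some libraries of both groups, to Mmp7, which was nearly absent with the implant, and to Mmp1 and Mmp10, which were at or near 0 throughout. A match of letters is a description of the sequence and does not show that a factor was bound in these nerves.

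**Figure D2:**
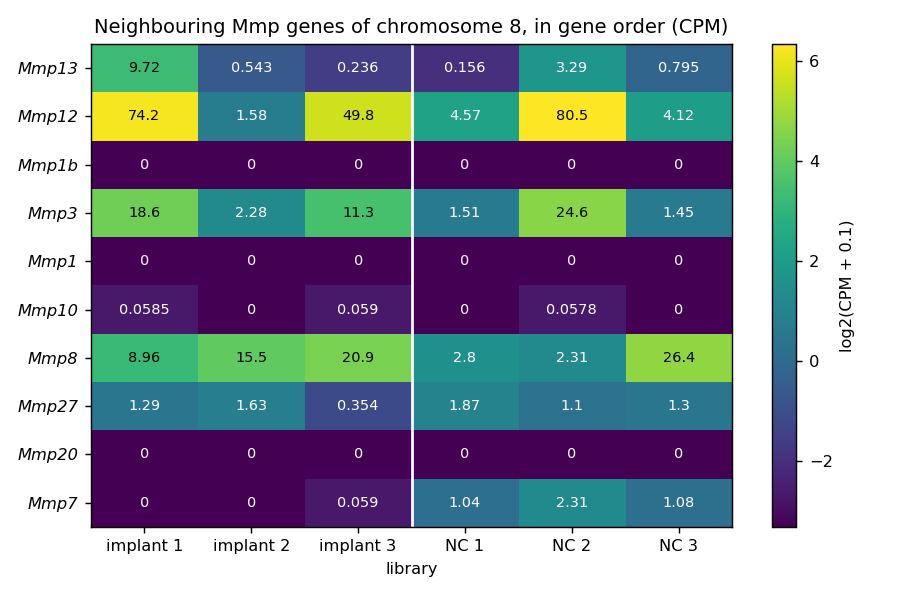
Levels (CPM, printed in each cell and coloured by log2(CPM + 0.1)) of the 10 neighbouring Mmp genes of chromosome 8 in gene order, for the 6 libraries, implant libraries on the left. Mmp12 and Mmp3 are high in implant 1, implant 3 and NC 2, Mmp8 has its lowest values in NC 1 and NC 2, and Mmp7 has values of at least 1.04 CPM in NC libraries only.

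Mmp7 (ENSRNOG00000010507) encodes matrilysin, a small MMP that epithelial and glandular cells are best known for making. It had 0, 0 and 1 counts in implant 1, 2 and 3, against 20, 40 and 15 counts in NC 1, 2 and 3. Every NC library was above every implant library. The summed level with the implant was 0.0128 times that in NC, and the exact 95% interval for counting error alone was 0.000320 to 0.0736. Its unadjusted p was 0.000788 in edgeR, which gave an adjusted p of 1, while DESeq2 gave an adjusted p of 0.0174; over the alternatives run the adjusted p ranged from 0.0174 to 1. The gene entered the test through its NC libraries alone, and at these counts it was left out by a filter of 1 CPM in at least 3 libraries. Keratinocyte markers, a check for keratinocytes and not for other epithelial or glandular cells, were low in both groups. They summed to 4.36 to 9.13 CPM with the implant and 5.40 to 10.8 CPM in NC over the 4 genes analysed here, and went both ways. Krt5 was at 0, 0 and 0.118 CPM with the implant, against 0, 0.694 and 0.145 CPM in NC. Krt1 was at 0.410, 0.380 and 0.295 CPM with the implant, against 0.104, 0.173 and 0.0723 CPM in NC, higher with the implant without overlap.

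Adam7, a non-proteolytic ADAM known from the epididymis, also had its counts in NC libraries. It was singled out after its values were seen and was below the filter. It had 0, 0 and 0 counts with the implant, against 11, 24 and 0 counts in NC. Taking 3 counts as the floor for the 3 implant libraries together, the summed NC level was 12.1 times that floor. The exact 95% interval for counting error alone allowed a level with the implant of up to 0.107 times that in NC. NC 3 had none either, so the groups overlapped.

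The aggrecanases cut the core proteins of aggrecan and related proteoglycans, the molecules that hold hyaluronan-rich matrix together. Adamts5 (ENSRNOG00000057794), a major aggrecanase, stood at 49.2, 52.8 and 46.0 CPM in implant 1, 2 and 3, against 65.0, 70.9 and 83.3 CPM in NC 1, 2 and 3. All implant libraries were below all NC libraries, with no overlap. The log2 fold change was -0.57 ± 0.14 (SE, n = 3 each; 95% interval -0.90 to -0.24), with an unadjusted p of 0.00556 and an adjusted p of 1 in edgeR. It kept an unadjusted p under 0.05 in each of the 15 alternatives, from 0.000464 to 0.0310, and passed the adjusted threshold in none, the lowest adjusted p being 0.316 (DESeq2).

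The other aggrecanases did not share this separation. Adamts1, the neighbour of Adamts5 on chromosome 11, stood at 142, 117 and 98.0 CPM in implant 1, 2 and 3, against 78.9, 79.6 and 229.6 CPM in NC 1, 2 and 3. NC 3 was far above the other libraries of both groups, and the log2 fold change of -0.12 ± 0.46 turned to 0.58 without that library. Adamts9 also had its highest value in NC 3, at 47.6, 28.3 and 28.7 CPM with the implant, against 32.8, 26.1 and 85.6 CPM in NC. Adamts4 stood at 37.5, 53.8 and 17.1 CPM in implant 1, 2 and 3, against 57.7, 20.7 and 40.6 CPM in NC 1, 2 and 3, with full overlap. Some of its deposited counts were not whole numbers, so its level is less certain. Adamts8 averaged 5.71 ± 3.70 CPM with the implant and 2.89 ± 0.604 CPM in NC (SD, n = 3), and Adamts15, its neighbour on chromosome 8, 54.3 ± 25.3 CPM with the implant and 51.8 ± 19.5 CPM in NC. Both were highest in implant 2. In this group of 7 genes, 2 were above 0 and 5 below, with a median of -0.14.

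Adamts20 had the widest range of all members, a ratio of 79.3 between its highest and lowest library. This protease acts on versican and is known in mice for its part in pigmentation. It stood at 21.1, 0.652 and 34.8 CPM in implant 1, 2 and 3, against 1.87, 59.5 and 4.34 CPM in NC 1, 2 and 3. Implant 1, implant 3 and NC 2 were high and the other 3 low, so that both groups held high and low libraries, and the log2 fold change was -0.22 ± 1.57. It was 2.62 without NC 2 and -1.02 without implant 3.

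**Figure D3:**
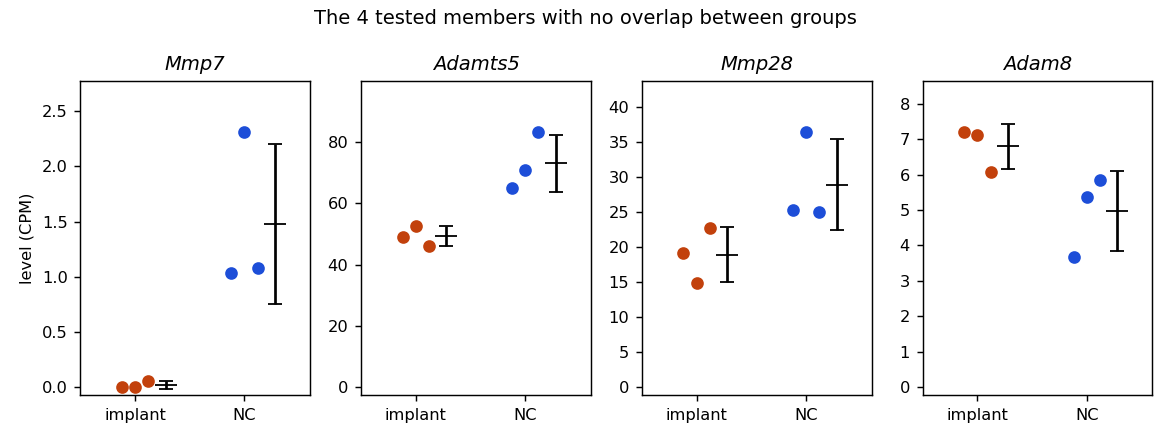
Levels (CPM, axes start at or just below 0) of Mmp7, Adamts5, Mmp28 and Adam8, the 4 tested members whose groups do not overlap. Points are libraries, implant left of NC, and bars are the mean and SD of 3 libraries; the first 3 are lower with the implant and Adam8 is higher, by a smaller margin.

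Mmp28 (ENSRNOG00000047940), or epilysin, is a secreted MMP that, unlike most, is made by resting as well as injured tissue. It stood at 19.3, 14.8 and 22.8 CPM in implant 1, 2 and 3, against 25.3, 36.5 and 25.1 CPM in NC 1, 2 and 3. The implant libraries were all below the NC libraries, though implant 3 and NC 3 lay only a little apart. The log2 fold change was -0.61 ± 0.23 (95% interval -1.17 to -0.06), with an unadjusted p of 0.0355 and an adjusted p of 1 in edgeR. The unadjusted p was above 0.05 without implant 1, implant 2 or NC 2, with haemoglobin level as a covariate, and with the replicate number as a block. Without NC 2, its highest library, the log2 fold change was -0.41 and the unadjusted p was 0.1.

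Adam8 (ENSRNOG00000017897), a membrane protease of leukocytes, stood at 7.20, 7.12 and 6.07 CPM in implant 1, 2 and 3, against 3.69, 5.38 and 5.86 CPM in NC 1, 2 and 3. Its lowest implant library was just above its highest NC library. The log2 fold change was 0.45 ± 0.24 (95% interval -0.14 to 1.04, unadjusted p 0.111, adjusted p 1, edgeR), and the interval did not exclude 0. The neutrophil list and the haemoglobin and red cell list both stood on the same side of their mean as Adam8 in each library, the only such member of the 57 (1.75%, beside 1.53% of all genes). As mean log2 deviations, the 7 tested neutrophil markers were at 0.14, 0.93 and 0.62 in implant 1, 2 and 3, against -0.99, -1.52 and 0.82 in NC 1, 2 and 3. The summed level of the 10 neutrophil markers was 187 to 346 CPM with the implant and 36.7 to 303 CPM in NC, and Ltf was at 0 in all implant libraries. Of the 7 tested, 6 were above 0 and 1 below, with a median log2 fold change of 1.05. On the higher side, 2 had groups without overlap (2.81% of all genes). On that side 1 had an unadjusted p under 0.05 in edgeR (1.03% of all genes), and 0 were called. Single markers departed from the list. Mpo averaged 10.9 ± 3.43 CPM with the implant and 21.2 ± 17.5 CPM in NC (SD, n = 3 each). Retnlg stood at 9.25, 16.2 and 12.6 CPM with the implant, against 7.06, 5.20 and 6.14 CPM in NC, low in NC 3. All implant libraries of Retnlg were above its NC libraries. Haemoglobin took 8.08%, 12.9% and 14.8% of counts in implant 1, 2 and 3, against 1.19%, 1.02% and 25.2% in NC 1, 2 and 3. The part of neutrophils and blood in the Adam8 values was not tested.

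The inducible secreted MMPs set libraries apart rather than groups. Mmp12, the elastase of macrophages, stood at 74.2, 1.58 and 49.8 CPM in implant 1, 2 and 3, against 4.57, 80.5 and 4.12 CPM in NC 1, 2 and 3. Mmp3, or stromelysin 1, which also activates other proMMPs, stood at 18.6, 2.28 and 11.3 CPM in implant 1, 2 and 3, against 1.51, 24.6 and 1.45 CPM in NC 1, 2 and 3. In both, implant 1, implant 3 and NC 2 were high and implant 2, NC 1 and NC 3 low. The log2 fold changes were 0.49 ± 1.54 and 0.22 ± 1.27 (edgeR, adjusted p 1 each). Without NC 2 they were 3.26 and 2.85, and the unadjusted p of Mmp3 was 0.0246 (adjusted p 0.963, within a range of 0.786 to 1 over its alternatives). Without implant 1 they were -0.18 and -0.41, so single libraries decide their size and their direction.

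Mmp9, or gelatinase B, which degrades basement membrane and is made by neutrophils and macrophages, stood at 30.7, 2.93 and 80.4 CPM in implant 1, 2 and 3, against 1.25, 13.6 and 5.93 CPM in NC 1, 2 and 3. Implant 3 was the highest, and implant 2 was below NC 2 and NC 3. The log2 fold change of 2.45 ± 1.26 had a 95% interval of -0.62 to 5.53 (unadjusted p 0.0986 in edgeR and 0.0228 in DESeq2, adjusted p 1 in both). It was 1.28 without implant 3 and 3.43 without NC 2. Mmp13, or collagenase 3, which cuts fibrillar collagen, stood at 9.72, 0.543 and 0.236 CPM in implant 1, 2 and 3, against 0.156, 3.29 and 0.795 CPM in NC 1, 2 and 3. Here implant 1 and NC 2 were high but implant 3 was not. Without implant 1 its log2 fold change of 1.30 ± 1.56 became -1.81, and without NC 2 it was 2.91.

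Mmp8, the collagenase of neutrophils, was singled out after its values were seen. It stood at 8.96, 15.5 and 20.9 CPM in implant 1, 2 and 3, against 2.80, 2.31 and 26.4 CPM in NC 1, 2 and 3. NC 1 and NC 2 were low, while NC 3 was above every implant library. The skeletal muscle markers were on the same side of their mean as Mmp8 in all 6 libraries. Mmp8 was the only such member of the 57 tested (1.75%), while 4.34% of all genes shared this pattern. The muscle markers had mean log2 deviations of -2.54, 1.66 and 3.65 in implant 1, 2 and 3, against -3.73, -0.19 and 1.15 in NC 1, 2 and 3. The haemoglobin and neutrophil marker lists shared the low NC 1 and NC 2 and the high NC 3, but were above their mean in implant 1, where Mmp8 was just below its own. The part of these tissues in the Mmp8 values was not tested.

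**Figure D4:**
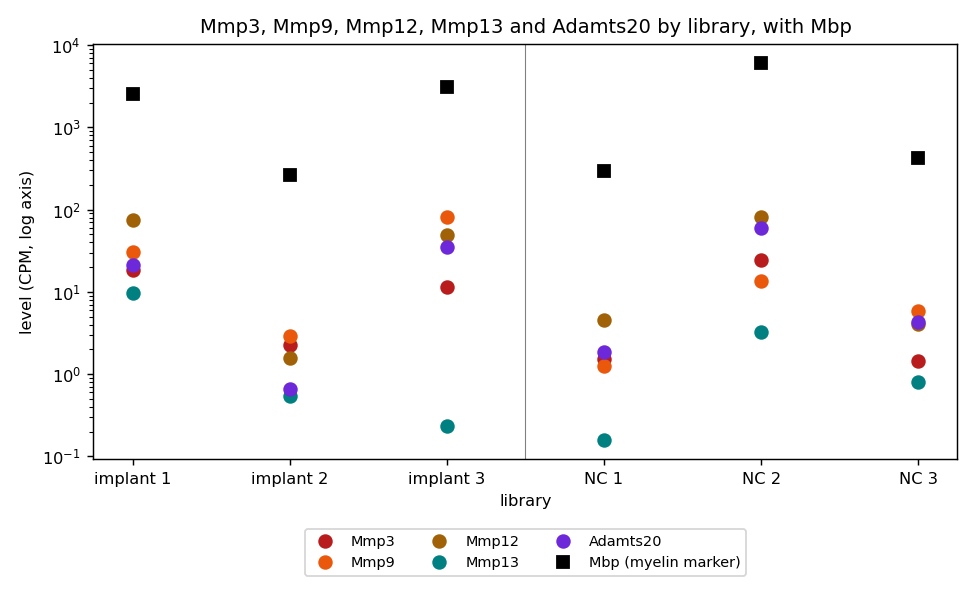
Levels (CPM, log axis) of Mmp3, Mmp9, Mmp12, Mmp13 and Adamts20 in each library, with the myelin gene Mbp as black squares; implant libraries are left of the line. Mmp3, Mmp12 and Adamts20 are high where Mbp is high, in implant 1, implant 3 and NC 2, and Mmp13 is low in implant 3.

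Members whose levels followed the myelin markers across libraries were counted across the whole group. The myelin basic protein gene Mbp had levels of 2526, 266 and 3085 CPM with the implant, against 295, 6100.2 and 419.7 CPM in NC. As mean log2 deviations from the 6 libraries, the 7 myelin markers stood at 1.56, -2.35 and 1.84 in implant 1, 2 and 3, against -2.66, 2.79 and -1.16 in NC 1, 2 and 3. There were 10 tested members (17.5%) on the same side of their own mean as these markers in all 6 libraries, and 11.5% of all genes were too. They were Adam10, Adam17, Adamts20, Adamts3, Adamtsl5, Mmp12, Mmp15, Mmp3, Mmp9 and Timp3. The opposite side in all 6 held 5 members (8.77%), Adamts12, Adamts15, Adamts18, Mmp2 and Mmp25, beside 7.21% of all genes. These shares are descriptions of 6 libraries, and the part of myelinating Schwann cells in them was not tested. The adipocyte markers were on the opposite side of their mean from the myelin markers, though at it in implant 2, with deviations of -0.66, 0.00 and -0.35 in implant 1, 2 and 3, against 0.27, -0.94 and 1.68 in NC 1, 2 and 3, and their part was not tested either. The 10 monocyte and macrophage markers had mean deviations of -0.08, -0.08 and 0.34 in implant 1, 2 and 3, against -0.31, -0.26 and 0.38 in NC 1, 2 and 3. They went both ways, since Lyz2 stood at 1662, 1110.5 and 1909.9 CPM with the implant, against 867, 1329.9 and 952 CPM in NC, high where myelin was high, and Mrc1 at 141, 196 and 225 CPM with the implant, against 188, 139 and 311 CPM in NC, low in implant 1 and NC 2.

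**Figure D5:**
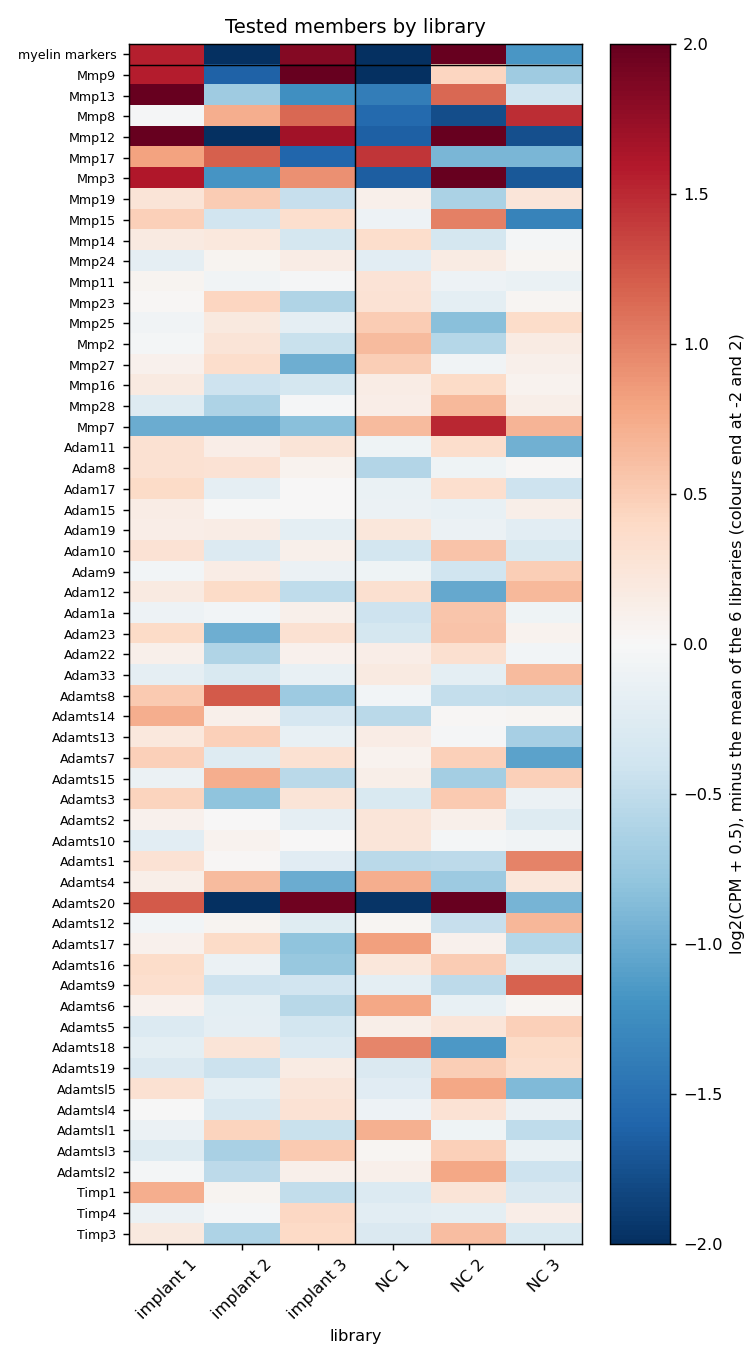
Each tested member by library, as log2(CPM + 0.5) minus its mean over the 6 libraries (red above, blue below, colours end at -2 and 2), under a first line with the 7 myelin markers; implant libraries are on the left. Mmp12, Mmp3 and Adamts20 follow the myelin markers with deviations of similar size, Mmp2 shows the opposite sides at smaller size, and most ADAM genes are close to 0.

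The gelatinase Mmp2 and its activator Mmp14 were present in every library. Mmp2, which degrades basement membrane and denatured collagen, stood at 623, 766 and 471 CPM in implant 1, 2 and 3, against 993, 432 and 719.8 CPM in NC 1, 2 and 3. It was highest in NC 1 and lowest in NC 2, with overlap between the groups and a log2 fold change of -0.20 ± 0.35 (95% interval -1.05 to 0.64, edgeR adjusted p 1). Mmp14, the membrane-bound enzyme that activates proMmp2, stood at 293, 299.7 and 203 CPM in implant 1, 2 and 3, against 329.6, 202 and 250.1 CPM in NC 1, 2 and 3. Its log2 fold change was 0.03 ± 0.25 (95% interval -0.57 to 0.63), an interval within 2-fold. Fibroblast markers, which include collagen genes, stood at mean log2 deviations of 0.03, 0.23 and -0.52 in implant 1, 2 and 3, against 0.35, -0.10 and 0.02 in NC 1, 2 and 3. They were highest in NC 1, as Mmp2 was, but lowest in implant 3, while Mmp2 was lowest in NC 2.

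Mmp15, another membrane-type MMP, stood at 219, 121 and 197 CPM in implant 1, 2 and 3, against 146, 315 and 61.6 CPM in NC 1, 2 and 3. Its highest and lowest libraries were both NC, and its log2 fold change was 0.04 ± 0.58. Mmp17, which is tied to the membrane by a lipid anchor, was singled out after its values were seen and stood at 31.6, 41.8 and 5.66 CPM in implant 1, 2 and 3, against 49.2, 9.25 and 9.25 CPM in NC 1, 2 and 3. Implant 1, implant 2 and NC 1 were high, and the log2 fold change was 0.22 ± 0.93. Ngfr, a receptor of denervated Schwann cells, was likewise highest in these 3 libraries, at 239.9, 379.8 and 84.8 CPM with the implant, against 434, 109 and 43.7 CPM in NC. The remaining membrane-type genes Mmp16, Mmp24 and Mmp25 had log2 fold changes of -0.41, 0.01 and -0.14. Among other secreted MMPs, Mmp11 (stromelysin 3) averaged 8.47 ± 0.383 CPM with the implant and 8.74 ± 1.52 CPM in NC, Mmp19 55.5 ± 17.6 CPM with the implant and 48.1 ± 14.2 CPM in NC and Mmp23 27.3 ± 9.53 CPM with the implant and 28.3 ± 4.80 CPM in NC (SD, n = 3 each). Their groups overlapped and their 95% intervals lay within 2-fold.

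ADAM10 and ADAM17 are the main sheddases of the cell surface, which release among others Notch, tumour necrosis factor and neuregulin, and in mice ADAM17 restrains myelination by cutting neuregulin 1. Adam10 stood at 233, 158 and 204 CPM in implant 1, 2 and 3, against 147, 282 and 155 CPM in NC 1, 2 and 3. Adam17 stood at 158, 108 and 121 CPM in implant 1, 2 and 3, against 111, 154 and 90.9 CPM in NC 1, 2 and 3. Both were highest in implant 1 and NC 2, and neither separated the groups. The 95% intervals of their log2 fold changes, -0.71 to 0.76 and -0.47 to 0.72, lay within 2-fold. Adam19, a sheddase of neuregulin 1, stood at 133, 134 and 105 CPM in implant 1, 2 and 3, against 142, 112 and 105 CPM in NC 1, 2 and 3, and its log2 fold change was 0.05 ± 0.17 (95% interval -0.37 to 0.48). Adam9 and Adam15 also had intervals within 2-fold. Adam12, which is expressed in fusing muscle cells and activated fibroblasts, averaged 43.6 ± 12.9 CPM with the implant and 46.1 ± 23.3 CPM in NC.

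The ADAMs that lack protease activity bind LGI proteins at synapses and along nerve. Adam22, which in mice is the axonal partner of Lgi4 from Schwann cells during myelination, stood at 3.04, 1.68 and 3.01 CPM with the implant, against 3.12, 3.64 and 2.67 CPM in NC. Adam23 stood at 37.2, 14.1 and 35.0 CPM with the implant, against 22.0, 42.2 and 29.9 CPM in NC, lowest in implant 2 and highest in NC 2. Adam11 averaged 0.975 ± 0.0951 CPM with the implant and 0.639 ± 0.478 CPM in NC. The testis-linked ADAMs were at or near 0, and 9 of the 28 Adam rows had no count in any library. Adam1a and Adam1 had deposited counts that are not whole, so their levels are less certain.

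The procollagen N-proteinases Adamts2, Adamts3 and Adamts14 remove the amino ends of fibrillar procollagens. Adamts2 stood at 143, 134 and 118 CPM in implant 1, 2 and 3, against 158, 144 and 112 CPM in NC 1, 2 and 3, with a log2 fold change of -0.07 ± 0.17 (95% interval -0.48 to 0.35). Adamts3 averaged 2.71 ± 1.29 CPM with the implant and 2.74 ± 1.05 CPM in NC, and Adamts14 7.29 ± 2.91 CPM with the implant and 5.53 ± 1.28 CPM in NC. Of the other ADAMTS genes, Adamts12, which cuts cartilage oligomeric matrix protein, stood at 91.2, 98.1 and 79.7 CPM in implant 1, 2 and 3, against 97.1, 69.0 and 151 CPM in NC 1, 2 and 3, with NC 3 highest. The 9 genes of this group ran from -0.64 (Adamts19) to 0.36 (Adamts13, the protease of von Willebrand factor) on the log2 scale, with 2 above 0 and 7 below. The ADAMTS-like proteins have no protease domain and sit in microfibrils. Adamtsl4 averaged 51.8 ± 10.9 CPM with the implant and 52.7 ± 8.84 CPM in NC, Adamtsl3 74.7 ± 31.9 CPM with the implant and 85.7 ± 19.5 CPM in NC and Adamtsl1 51.5 ± 16.6 CPM with the implant and 55.8 ± 25.0 CPM in NC, with overlap of the groups in each.

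Of the inhibitors, Timp1, Timp3 and Timp4 were tested and Timp2 was not analysed here. Timp1, which is induced by injury and cytokines, stood at 92.2, 57.5 and 39.0 CPM in implant 1, 2 and 3, against 45.8, 66.2 and 45.3 CPM in NC 1, 2 and 3. Implant 1 was highest and implant 3 lowest, so the implant group spanned the NC group. Timp3, which binds to matrix and inhibits ADAM17 as well as MMPs, stood at 149, 85.0 and 172 CPM in implant 1, 2 and 3, against 106, 199.9 and 105 CPM in NC 1, 2 and 3, in the same order of libraries as Mbp except that NC 1 and NC 3 changed places. Timp4 stood at 16.1, 17.2 and 23.5 CPM in implant 1, 2 and 3, against 15.004, 15.3 and 19.3 CPM in NC 1, 2 and 3. The log2 fold changes were 0.26 ± 0.34, -0.01 ± 0.37 and 0.20 ± 0.20, and the 95% interval lay within 2-fold for Timp3 and Timp4. Summed over genes, TIMP counts averaged 217 ± 51.3 CPM with the implant and 206 ± 65.4 CPM in NC, and MMP counts 1331 ± 162 CPM with the implant and 1368 ± 265 CPM in NC.

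The genes that act with metalloproteinases were read from lists. Of 10 tested genes of plasminogen and proprotein activation, which turn proMMPs into active enzymes, 0 were called and 0 had an unadjusted p under 0.05 (edgeR), with 4 above 0, 6 below and a median log2 fold change of -0.02. The proprotein convertase Pcsk6 averaged 62.9 ± 13.4 CPM with the implant and 82.0 ± 17.3 CPM in NC. Of 9 other inhibitors, receptors and partners, 0 were called or had an unadjusted p under 0.05 (median -0.03). Lrp1, the receptor that takes up metalloproteinases and their complexes, stood at 850.2, 1082 and 874 CPM in implant 1, 2 and 3, against 1526, 887 and 1198 CPM in NC 1, 2 and 3. A2m, a plasma protease inhibitor, stood at 252, 84.6 and 38.3 CPM with the implant, against 67.5, 99.1 and 12.1 CPM in NC. The 8 partners of ADAM10 and ADAM17 had a median of 0.19, with 6 above 0 and 0 called or under an unadjusted p of 0.05. Tspan33, a tetraspanin that binds ADAM10, stood at 7.73, 14.7 and 2.95 CPM with the implant, against 2.34, 1.85 and 9.18 CPM in NC. Rhbdf2, which carries ADAM17 to the cell surface, averaged 29.7 ± 6.08 CPM with the implant and 25.3 ± 9.70 CPM in NC.

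On the substrate side, 21 tested proteins shed by ADAM10 and ADAM17 had a median of -0.02 and 0 called or under an unadjusted p of 0.05. Sdc1, which encodes syndecan 1, averaged 30.7 ± 7.90 CPM with the implant and 23.1 ± 4.18 CPM in NC. Of 23 matrix substrates, 0 were called by edgeR and 1, fibromodulin (Fmod), was under an unadjusted p of 0.05, on the lower side (1.72% of all genes were under it, 0.693% on the lower side), with a median of 0.01 over the list. Fmod, a collagen-binding proteoglycan cut by ADAMTS proteases and MMPs, averaged 48.2 ± 6.61 CPM with the implant and 99.3 ± 17.8 CPM in NC (unadjusted p 0.00123, adjusted p 1, edgeR). All its implant libraries were below its NC libraries, and DESeq2, with an adjusted p of 0.00665, called it. Cspg4, the proteoglycan NG2, averaged 78.5 ± 23.9 CPM with the implant and 106 ± 26.7 CPM in NC. Of 6 other matrix proteases, 5 were above 0 with 0 called or under an unadjusted p of 0.05. Cathepsin S (Ctss), a protease of macrophages, stood at 205, 204 and 216 CPM in implant 1, 2 and 3, against 197, 194 and 183 CPM in NC 1, 2 and 3, where the groups did not overlap and the unadjusted p was 0.302. Cathepsin K (Ctsk), a collagen-cutting cysteine protease, averaged 194 ± 23.0 CPM with the implant and 152 ± 34.9 CPM in NC. The 12 tested inducers of metalloproteinase transcription had a median of 0.08 and 0 called or under an unadjusted p of 0.05. Among them Lif averaged 8.07 ± 3.74 CPM with the implant and 4.61 ± 2.17 CPM in NC, and Il6 stood at 1.05, 1.68 and 0.531 CPM with the implant, against 0.727, 0.347 and 11.7 CPM in NC, high in NC 3 alone.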

How the data were processed

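Messenger RNA was enriched on oligo(dT) beads before NEBNext Ultra library preparation, a kit that does not mark strand, per the labels' protocols. Tools listed in the submitters' processing notes, without roles, are DESeq2, HISAT2, StringTie (1.3.1) and Bowtie2 (2.2.8). Which program counted reads, on which build, is not given in the sources used here. One table was deposited, in which the authors gave estimated counts (expected counts) per gene for 23091 genes, with 1898 to 2085 values per library that are not whole. Columns named Con and Gel_HA-Mg were matched to the NC and GDNF-Gel/HA-Mg samples by name and number.

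Counts were rounded, filtered with filterByExpr (13999 genes left), scaled by TMM and tested in R 4.3.3 by the two-sided quasi-likelihood test of edgeR 4.0.16 with group as the only term. P-values were adjusted over all genes by Benjamini-Hochberg and called under 0.05. Only member rows are printed. The standard error is the log2 fold change over the root of F, and 95% intervals use its degrees of freedom. CPM use the TMM-scaled library size. No library pair agreed within sampling noise. The test was tested on simulated counts. Counting intervals are exact binomial and cover counting error only.

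Alternatives were RLE and upper quartile scaling, no filter, a filter of 1 CPM in 3 libraries, DESeq2 1.42.0, limma-voom (limma 3.58.1), the replicate number as a block, haemoglobin level as a covariate, haemoglobin, muscle and adipocyte genes left out, and each library left out. Members with values per library were those under an unadjusted p of 0.05, those without overlap, the 3 highest in mean CPM of each family (ADAMTS with ADAMTS-like), the 5 with the widest range, and a fixed set of well-known members; from each list of partner genes, up to 2 by smallest p. Others were singled out after their values were seen. The members and lists were chosen with earlier results of these data known. Promoters are from RefSeq (GRCr8), and gene order and chromosomes were looked up by symbol in RefSeq, with no coordinates of the files used. Figures were drawn with matplotlib 3.10.9.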

Additional observations from a re-analysis of the deposited data

How the results depend on the processing

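No member was called by edgeR under any scaling, filter, block, covariate or left-out library, nor by limma-voom, while DESeq2 called 1, Mmp7. The count of members at an unadjusted p under 0.05, 3 in the edgeR fit, was 6 with haemoglobin level as a covariate, where 8.74% of all genes passed, and 2 to 6 when 1 library was left out. It was 2 with the replicate block, where Adamts5 and Mmp7 passed. The count without overlap was 4 under each scaling. Deviations of same-numbered libraries correlated across genes at 0.07, -0.74 and 0.05. Those of differently numbered libraries ranged from -0.62 (implant 3 with NC 1) to 0.55 (implant 2 with NC 1). With so few libraries a group, these values do not settle whether the replicate numbers of the labels pair the samples.

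Of 22 named and tested members, Mmp9, Mmp28, Adam8, Adamts5 and Timp4 kept their direction in all alternatives. Mmp7 did so in those that gave a value. It passed the filter only through NC, so in the filtered fits its direction was set by the filter. With 1 library left out, the log2 fold changes of the members that changed sign ranged as follows: Adam10 -0.12 to 0.39, Adam17 -0.035 to 0.35, Mmp12 -0.18 to 3.26, Mmp13 -1.81 to 2.91, Mmp14 -0.13 to 0.25, Mmp15 -0.36 to 0.78, Mmp3 -0.41 to 2.85, Timp1 -0.11 to 0.51, Adam19 -0.036 to 0.21, Adamts20 -1.02 to 2.62, Timp3 -0.23 to 0.36, Adamts2 -0.20 to 0.061, Adamts4 -0.54 to 0.25, Mmp2 -0.47 to 0.12, Adamts1 -0.38 to 0.58 and Adamts12 -0.47 to 0.11. With limma-voom, Adamts1 was at 0.037. With the replicate block, Adamts1 was at 0.075, Adamts20 at 1.54, Mmp13 at -0.24 and Timp3 at 0.011. With the haemoglobin covariate, Adamts2 was at 0.12, Adamts20 at 1.27 and Timp3 at 0.21. None of these passed the adjusted threshold, and the cause of the changes was not tested. With 3 libraries a group and a median standard error of 0.37 over members, the unadjusted 95% interval lay within 2-fold for only 17 of 57. At the adjusted threshold larger differences also went uncalled, such as that of Mmp9, with a log2 fold change of 2.45.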

Other observations

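Markers of multinucleated macrophages and bone were read beside Mmp9, which osteoclasts also make. Dcstamp, needed for the fusion of macrophages and osteoclasts, stood at 0.937, 0.163 and 1.59 CPM in implant 1, 2 and 3, against 0.0519, 1.62 and 0.145 CPM in NC 1, 2 and 3. Ocstamp, which acts in the same fusion, stood at 1.58, 0 and 1.36 CPM in implant 1, 2 and 3, against 0.104, 1.73 and 0.289 CPM in NC 1, 2 and 3. Both were highest in implant 1, implant 3 and NC 2, the libraries in which Mmp9 and Mmp12 were highest. In these libraries, and in no others, the myelin markers were above their mean, a pattern shared by 11.5% of all genes. Acp5, an osteoclast phosphatase, did not follow Dcstamp and Ocstamp, at 26.1, 26.4 and 18.9 CPM with the implant, against 18.0, 20.4 and 25.3 CPM in NC. Ctsk, of the same list, did not either, at 197, 169 and 215 CPM with the implant, against 190, 141 and 123 CPM in NC. The list of 7 markers summed to 197 to 243 CPM with the implant and 149.6 to 209.8 CPM in NC, with Bglap, the osteocalcin gene of bone-forming cells, at no more than 0.177 CPM in any library. Of the 10 monocyte and macrophage markers, Itgam, an integrin of myeloid cells, stood at 73.2, 39.0 and 78.5 CPM with the implant, against 32.9, 53.1 and 36.6 CPM in NC, and Lyz2 had the same 3 libraries highest. Mrc1, Cd163, C1qa, C1qb and Adgre1 were instead lower in implant 1 and NC 2 than in implant 2, implant 3 and NC 3; Cd163 stood at 82.5, 129 and 148 CPM with the implant, against 76.3, 62.8 and 271 CPM in NC. These genes were singled out after their values were seen, and what links them to Mmp9 was not tested.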
